A study of Mus musculus with 2 samples.

Results

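Genes of DNA repair and the cell cycle checkpoints were followed in total RNA from mouse CFU-E cells (erythroid colony-forming units, progenitors already committed to making red cells). The members are 33 of the 43346 Ensembl genes in the deposited gene tables, chosen by symbol: 10 Fanconi genes, 13 genes of homologous recombination, 3 of mismatch repair and 7 of the checkpoints. All 33 were found in both tables. The study has 1 group of 2 biological replicates, primary cells of the C57BL/6J strain, male and adult (5 to 6 weeks old), with no treatment or allele named and no other group. The isolation document cited in the labels is titled for bone marrow. Each library was made by ScriptSeq from 100 ng of RNA depleted of ribosomal RNA. The labels give both replicates 1 donor identifier but separate biosamples, and part of their spread may thus be technical. No test between conditions is possible, and the SDs below are over n = 2.

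The Fanconi pathway removes crosslinks that tie the strands of DNA together: a core complex attaches ubiquitin to the Fancd2 and Fanci pair, and nucleases and recombination then finish the repair. Homologous recombination copies an intact sister strand across a double-strand break, and mismatch repair removes bases that the polymerase paired wrongly. The kinases Atm and Atr sense breaks and stalled forks, and signal through Chek2 and Chek1 to hold the cell cycle. In humans, inherited loss of Fanconi genes causes bone marrow failure with anaemia.

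Expected counts (reads per gene, with a read that matches several genes shared between them) summed to 62576357 in replicate 1 and 36889517 in replicate 2. The members held from 0 to 19990 counts in replicate 1 and from 68.15 to 11558 in replicate 2. Levels are given in TPM, which corrects counts for transcript length and sets each library to the same total. Nuclear protein-coding genes held 12.4% of TPM in replicate 1 and 7.49% in replicate 2, and 28 members had a higher TPM in replicate 1. Measures without that shift are given beside TPM: rescaled TPM, with nuclear protein-coding genes set to the same total in each library, and the rank, the percentage of the 21461 nuclear protein-coding genes that stood below the member in the same library. Only 10799 of those genes had reads in replicate 1 and 11803 in replicate 2. A rank thus counts many genes without reads, and Fance, with 10 counts in replicate 1, had a rank of 51.6 there. Of 9 erythroid markers 8 reached 10 TPM in each library and Kit was low, at 0.42 and 0.51 TPM in replicates 1 and 2. Markers of other cells were present too: 9 granulocyte markers summed to 1213 TPM in replicate 1 and 615 in replicate 2, with all 9 above 1 TPM in both, 8 macrophage markers to 137.8 and 86.7 (7 of 8), 9 B cell markers to 39.1 and 21.8 (3 of 9), 5 T cell markers to 4.11 and 1.67 (1 of 5), and 5 megakaryocyte markers to 13.6 and 4.24 (2 of 5). No marker on these lists had 0 counts in both libraries. The part of those cells in the levels below was not tested, and in bulk RNA fewer cells of a type and less RNA per cell cannot be told apart.

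In deposited TPM the DNA repair and checkpoint genes were at a low to moderate level, with Brca1 highest. By rank the median member stood above most nuclear protein-coding genes. Of the 33 members 23 (69.7%) reached 1 TPM in both libraries, against 23.9% of nuclear protein-coding genes. One member, Brca1, reached 10 TPM in both, against 4.79% of those genes. On the rescaled scale 31 members reached 1 and 24 reached 10 in both libraries, against 42.2% and 24.9% of nuclear protein-coding genes. The median member level was 3.66 TPM in replicate 1 and 2.12 in replicate 2, while the medians over all nuclear protein-coding genes were 0 and 0.04. Among the groups, mismatch repair had a median of mean TPM of 4.26, homologous recombination 2.98, Fanconi 2.74 and the checkpoints 2.59. The median rank was 83.9 in replicate 1 and 83.1 in replicate 2. Across the 33 genes the order of levels was much alike in the libraries (Spearman's rho 0.894, against 0.884 over the 6641 nuclear protein-coding genes that reached 1 TPM in a library; genes are not replicates). The 3 highest members of each library held 28.9% and 29.6% of the members' summed TPM.

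**Figure D1:**
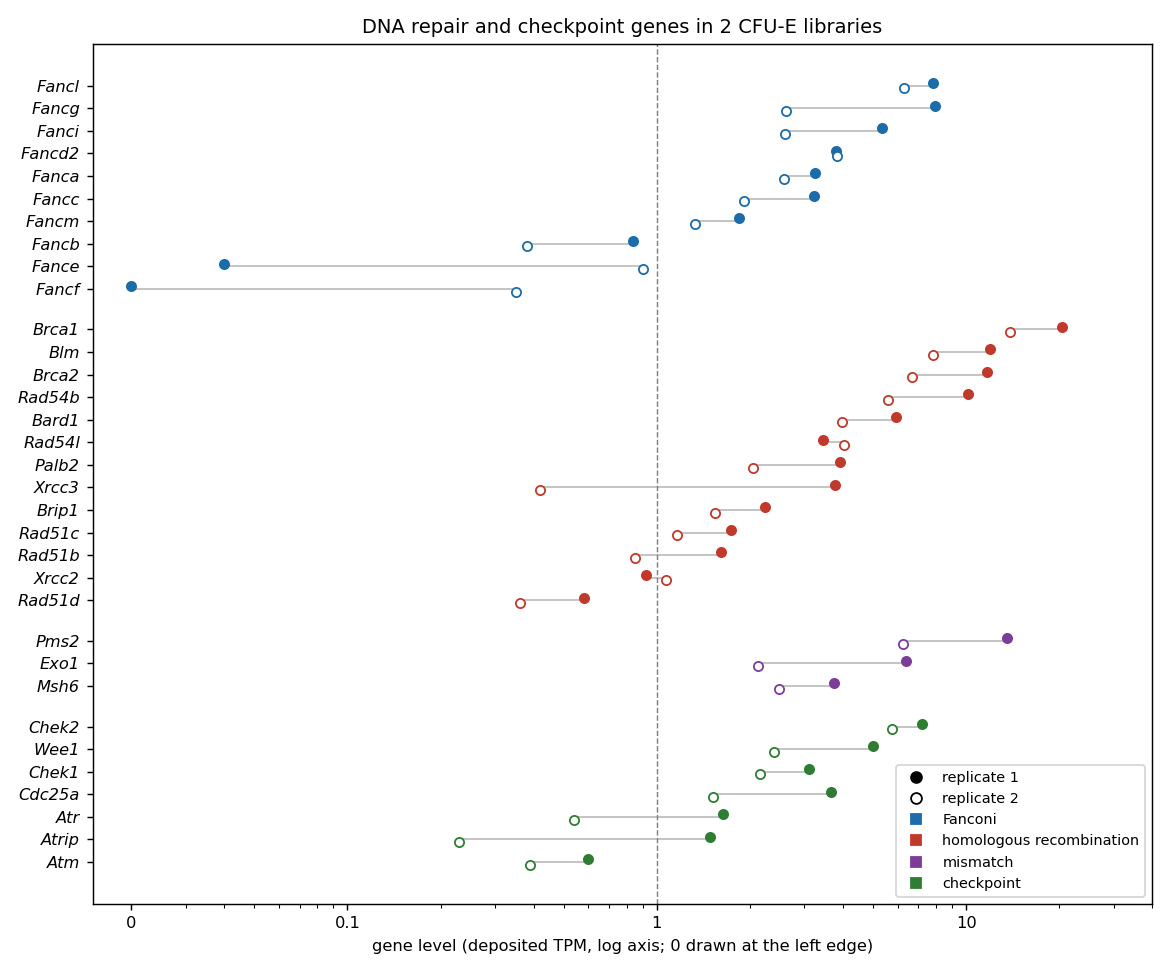
Level of each of the 33 members in deposited TPM on a log axis, by group, in replicate 1 (filled) and replicate 2 (open), with the dashed line at 1 TPM. Brca1 is the only member above 10 TPM in both libraries, and Fancb, Fance, Fancf, Rad51d and Atm lie below 1 TPM in both.

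Promoter sequence was compared as a feature that the choice of members did not use. A RefSeq window (GRCm38.p6) was at hand for 27 members, and the 250 bases before the start site were searched on both strands. In 22 of the 27 the first 30 bases after that start site were found somewhere in a GENCODE transcript of the gene. A start site inside an exon also passes this check, so in any of the 27 it may differ from the annotated ones. E2F-type sites, named for the factors that drive genes at the start of DNA replication, were searched as TTTGGCGC, TTTCGCGC, TTTCCCGC and TTTGCCGC. They were found in 5 members, Bard1, Brca2, Cdc25a, Chek2 and Fancg, which is 18.5% of the 27, while 2.37% of the 19931 windows of nuclear protein-coding genes did. These 5 matches overlapped no other motif searched. Stretches around the matches are shown because they carry this feature, with the match in capitals and each stretch written in the gene's own direction; annotated exons were left out except for Fancg, whose match lies in one.
Bard1, chr1:71103147-71103222, minus strand: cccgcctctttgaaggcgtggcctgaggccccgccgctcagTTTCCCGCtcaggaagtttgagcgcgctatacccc
Brca2, chr5:150522371-150522620, plus strand: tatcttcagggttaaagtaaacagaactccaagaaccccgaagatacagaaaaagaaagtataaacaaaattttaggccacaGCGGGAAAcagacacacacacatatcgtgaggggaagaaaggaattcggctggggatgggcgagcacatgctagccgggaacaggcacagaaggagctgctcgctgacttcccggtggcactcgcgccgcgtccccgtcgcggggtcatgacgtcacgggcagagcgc
Cdc25a, chr9:109875329-109875578, plus strand: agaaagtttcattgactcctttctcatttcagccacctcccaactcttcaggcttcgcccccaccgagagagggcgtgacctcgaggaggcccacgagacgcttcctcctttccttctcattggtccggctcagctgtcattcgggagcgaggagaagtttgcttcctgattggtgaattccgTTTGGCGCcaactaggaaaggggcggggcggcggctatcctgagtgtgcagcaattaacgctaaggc
Chek2, chr5:110839778-110839978, plus strand: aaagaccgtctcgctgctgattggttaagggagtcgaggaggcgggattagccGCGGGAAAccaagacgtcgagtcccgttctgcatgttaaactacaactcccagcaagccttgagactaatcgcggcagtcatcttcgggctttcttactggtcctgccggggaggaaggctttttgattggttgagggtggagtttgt
Fancg, chr4:43010335-43010364, minus strand: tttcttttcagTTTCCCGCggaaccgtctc
The match ended 201, 160, 59, 144 and 44 bases before the RefSeq start site in Bard1, Brca2, Cdc25a, Chek2 and Fancg. The annotated Fancg gene reaches to 43010506 on the minus strand, so its match lies inside the gene. Bard1 is annotated up to 71103146, so its match lies closer to the annotated start than to the RefSeq one. Mean levels of the 5 ran from 2.59 to 9.16 TPM with a median of 5.28, and the 22 other members with a window had a median of 2.33 TPM. The CCAAT box (CCAAT) was held by 18 of the 27 members (66.7%) and 35.0% of coding windows, and the GC box (GGGCGG) by 17 (63.0%) and 44.4%. For these motifs the medians ran the other way: 2.33 TPM with a CCAAT box and 3.97 without, and 2.59 with a GC box and 3.96 without. The cell cycle homology region (TTTGAA or TTCGAA) was in 2 windows, of Atr and Bard1, or 7.41%, against 15.1%. A match is a run of letters and was not tested as a site.

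Within the Fanconi core complex, levels differed widely between subunits. Fancl, the ubiquitin ligase of the complex (chromosome 11, 26386135 to 26471876), was the highest Fanconi gene by mean, at 7.81 TPM in replicate 1 and 6.30 in replicate 2. Fancg, another subunit (chromosome 4, 43002343 to 43010506), had 7.94 and 2.62 TPM, and its rank was 90.98 in replicate 1 and 85.3 in replicate 2. Both stood above the median member in each library. Fanca, its partner in the complex, had 3.25 and 2.57 TPM, and Fancc, which joins the complex through Fance, had 3.22 and 1.91. The remaining core subunits were low in both libraries. Fancb, which pairs with the ligase, had 0.84 and 0.38 TPM. Fance, which contacts Fancd2, had 10 and 86 counts, or 0.04 and 0.90 TPM. Fancf, an adaptor encoded by a single exon (chromosome 7, 51860577 to 51862267), had 0 counts in replicate 1, where 3 counts would be 0.0125 TPM, and 79 counts or 0.35 TPM in replicate 2. Against that floor of 3 counts in the one library, Fancf was at least 42.7-fold lower in replicate 1 after scaling. The start of Fancf overlaps Gas2 on the other strand, which had 146 and 123 counts, and whether reads were counted by strand is not stated. Such a gap between the libraries was seen in other genes as well: 4.59% of nuclear protein-coding genes had 0 counts in replicate 1 and at least 10 in replicate 2.

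The substrates of the core complex stood above most of its subunits. Fancd2 (chromosome 6, 113531682 to 113597017) had 3.79 TPM in replicate 1 and 3.82 in replicate 2, and its rescaled levels were 30.5 and 51.0. Fanci, its partner (chromosome 7, 79391929 to 79450264), had 5.35 and 2.59 TPM, or 43.1 and 34.6 rescaled. Fanci was the higher of the pair in replicate 1 and Fancd2 in replicate 2. The log2 ratio of Fancd2 to Fanci, 0.03 ± 0.75, was within its spread. Fancm, the translocase that brings the core complex to DNA, had 1.84 TPM in replicate 1 and 1.33 in replicate 2 on its single listed transcript of 7775 bases.

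Among the genes of homologous recombination Brca1 stood highest, followed by Blm and Brca2. Brca1, a ubiquitin ligase that starts recombination at a break (chromosome 11, 101488764 to 101551955), had 20.4 TPM in replicate 1 and 13.9 in replicate 2, from 19727 and 11558 counts. Its ranks were 96.2 and 96.5, the highest of all members in both libraries. Brca2, which loads the recombinase onto single-stranded DNA (chromosome 5, 150522630 to 150570329), had 11.7 and 6.67 TPM from 19990 and 10607 counts. The log2 ratio of Brca1 to Brca2 was 0.93 ± 0.18 in TPM but 0.05 in counts, since the Brca2 transcript is 10724 bases long. Bard1, the obligate partner of Brca1 (chromosome 1, 71027498 to 71103146), had 5.95 and 3.96 TPM. Its log2 ratio to Brca1, -1.80 ± 0.02, was the closest between libraries of the 10 pairs examined. Palb2, which bridges Brca1 and Brca2, had 3.91 and 2.04 TPM, and Brip1, a helicase that binds Brca1, had 2.24 and 1.54. The order Brca1, Brca2, Bard1, Palb2, Brip1 held in each library.

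Blm, the helicase that resolves crossed strands without exchange (chromosome 7, 80454733 to 80535119), had 11.97 TPM in replicate 1 and 7.81 in replicate 2, ranks of 93.6 and 93.8. Mean levels of Blm (9.89 ± 2.94), Pms2 (9.88 ± 5.15) and Brca2 (9.16 ± 3.52) lay close together. Their SDs include the shift of TPM between the libraries and do not measure the spread of a difference between genes. Blm was above Brca2 in each library, at 96.4 and 93.8 rescaled TPM in replicate 1 and 104.3 and 89.1 in replicate 2. Pms2 was above both in replicate 1 (13.5 TPM) and below both in replicate 2 (6.23). The DNA translocases of recombination are encoded by Rad54l and Rad54b. Rad54l had 3.44 and 4.03 TPM and was 1 of 5 members, with Fancd2, Fance, Fancf and Xrcc2, whose TPM was higher in replicate 2. Rad54b had 10.1 and 5.60 TPM, and the log2 ratio of Rad54l to Rad54b was -1.01 ± 0.76.

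The 5 paralogs of the recombinase, which help it to form its filament, had mean levels below the median member. Xrcc3 had 3.78 TPM in replicate 1, just above that library's median member, and 0.42 in replicate 2. Rad51c had 1.74 and 1.16 TPM, Rad51b 1.61 and 0.85, Xrcc2 0.92 and 1.07, and Rad51d 0.58 and 0.36. Of the 5, Rad51c alone passed 1 TPM in each library. The log2 ratio of Rad51c to Rad51b was 0.28 ± 0.24.

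All 3 mismatch repair members passed 1 TPM in both libraries. Pms2, an endonuclease subunit (chromosome 5, 143909964 to 143933968), had 13.5 TPM in replicate 1 and 6.23 in replicate 2. Exo1, the exonuclease that removes the mispaired strand (chromosome 1, 175880581 to 175913489), had 6.40 and 2.12. Msh6, which recognises the mismatch (chromosome 17, 87975062 to 87990892), had 3.73 and 2.48 TPM from 2455 and 1524 counts. The log2 ratio of Msh6 to Pms2 was -1.59 ± 0.37 in gene TPM.

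In the checkpoint group the Chek2 and Wee1 kinases stood above the sensor kinases. Chek2, the effector of Atm (chromosome 5, 110839979 to 110874145), had 7.21 TPM in replicate 1 and 5.74 in replicate 2. Chek1, the effector of Atr (chromosome 9, 36708482 to 36727065), had 3.11 and 2.15 TPM, a log2 ratio to Chek2 of -1.31 ± 0.14. Wee1, which holds the mitotic kinase inactive (chromosome 7, 110122046 to 110143286), had 5.00 and 2.39 TPM. Cdc25a, the phosphatase that opposes Wee1 and is degraded after Chek1 acts on it (chromosome 9, 109875579 to 109893895), had 3.66 and 1.52. The log2 ratio of Wee1 to Cdc25a was 0.55 ± 0.14, with Wee1 higher in both libraries. Atm (chromosome 9, 53439149 to 53536740) had 0.60 and 0.39 TPM, with a rank of 65.4 in both libraries. Atr (chromosome 9, 95857597 to 95951781) had 1.64 and 0.54, and Atrip, its targeting subunit (chromosome 9, 109057933 to 109074124), had 1.48 and 0.23. Atr exceeded Atm by a log2 ratio of 0.96 ± 0.69, and the log2 ratio of Atrip to Atr, -0.69 ± 0.77, was within its spread.

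The transcript tables showed that similar gene levels rested on different kinds of transcript. Each transcript was given its GENCODE M21 type: protein-coding, retained intron, nonsense-mediated decay (a reading frame that ends early) or processed transcript (no reading frame). Total RNA keeps unspliced messages, and a short transcript needs few reads for a given TPM. In 31 members with at least 50 counts in both libraries, the protein-coding transcripts held a median of 90.1% of the gene's TPM in replicate 1 and 80.4% in replicate 2. Over 8502 nuclear protein-coding genes with such counts the median was 100% in both libraries. Of the 31 members 7 have 1 listed transcript. Among genes with more than 1 annotated transcript the medians were 72.6% and 57.6% in 24 members, against 90.0% and 84.5% in 6385 genes. Protein-coding transcripts held under 50% in both libraries in 8 of the 31 (25.8%), as in 10.7% of the 8502 genes. Among genes with more than 1 annotated transcript this was so in 8 of 24 members (33.3%), against 14.1% of 6385. The 8 were Fancg, Palb2, Rad51c, Xrcc3, Rad54l, Rad54b, Pms2 and Atrip.

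**Figure D2:**
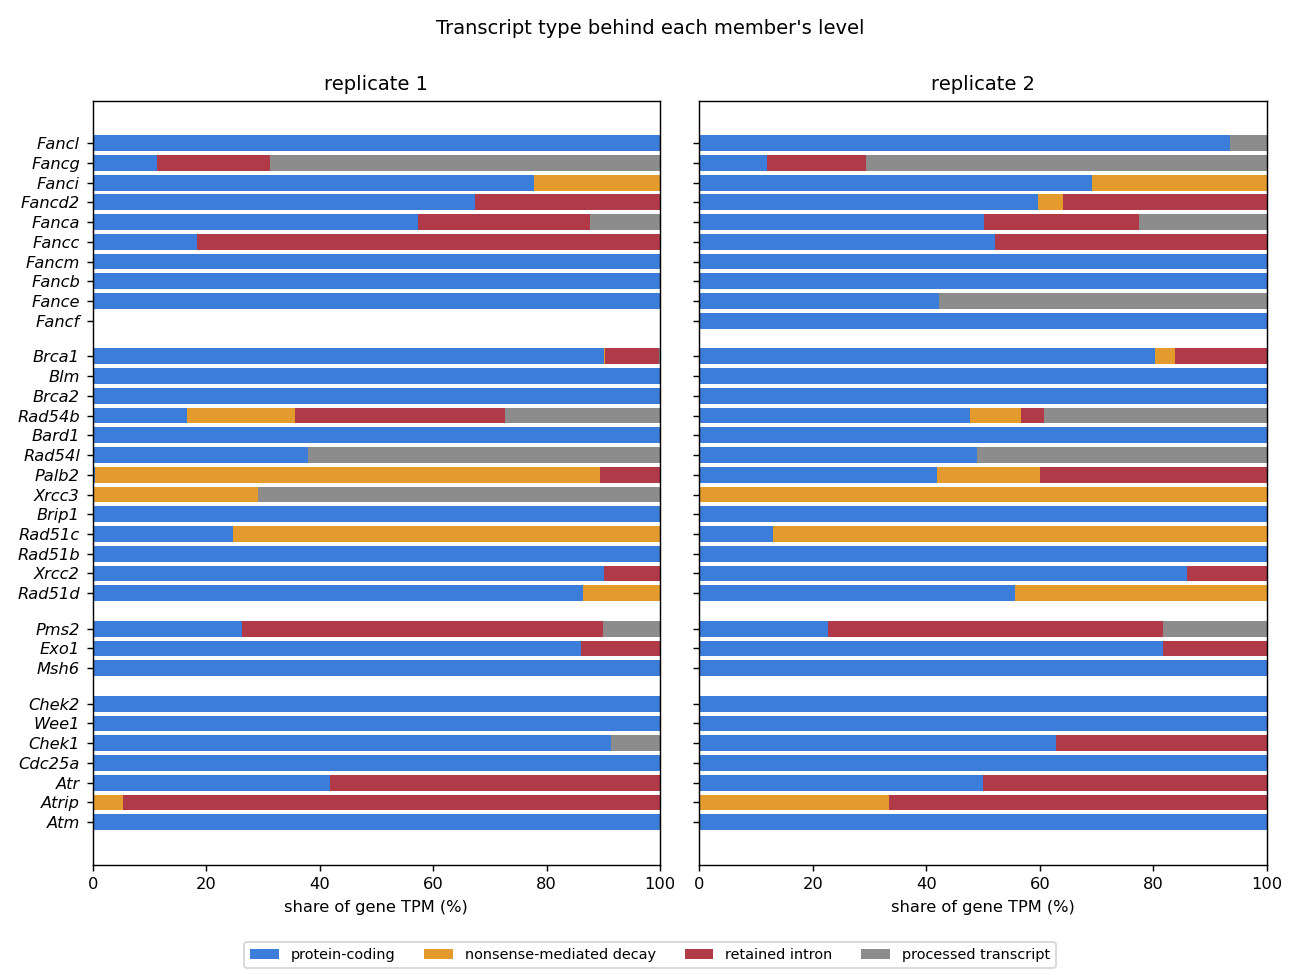
Percentage of each member's TPM held by each annotated transcript type, in replicate 1 (left) and replicate 2 (right), with genes in the order of the plot of levels. Brca2, Bard1, Blm, Brip1, Rad51b, Fancb, Fancm, Msh6, Chek2, Atm, Wee1 and Cdc25a are wholly protein-coding. All of these but Brip1 and Atm have only protein-coding transcripts listed, so their share was fixed in advance. Xrcc3 and Atrip have no protein-coding share in either library, and Fancf had no reads in replicate 1.

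Pms2, Fancg and Rad54b ranked high by gene TPM through short or intron-bearing transcripts. In Pms2 retained-intron transcripts held 63.6% of TPM in replicate 1 and 59.1% in replicate 2, and protein-coding ones 3.56 and 1.41 TPM. These values include a transcript of 719 bases, with 1.15 and 0.07 TPM, that the deposited tables list under Pms2 and GENCODE M21 under the overlapping gene Gm42421. Without it the protein-coding transcripts of Pms2 held 2.41 TPM in replicate 1 and 1.34 in replicate 2. In Fancg protein-coding transcripts held 0.90 and 0.31 TPM, 11.3% and 11.8% of the gene. Processed transcripts held most of the rest of Fancg, among them one of 357 bases with 3.35 TPM in replicate 1 and 0 in replicate 2. In Rad54b protein-coding transcripts held 1.69 and 2.67 TPM, and a retained-intron transcript of 702 bases had 3.75 TPM in replicate 1 and 0.23 in replicate 2. Expected counts are not corrected for length, so a longer transcript takes a larger share of them than of TPM. By expected counts, protein-coding transcripts held 50.02% of Fancg in replicate 1 and 41.6% in replicate 2. They held 54.6% and 83.5% of Rad54b, and, with the Gm42421 transcript included, 36.5% and 4.48% of Pms2. By mean protein-coding TPM without that transcript, Pms2 was number 16 of the 33 members, Fancg number 24 and Rad54b number 13. By mean gene TPM they were number 3, number 8 and number 5.

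Xrcc3 and Atrip had no TPM on protein-coding transcripts. All of Xrcc3 in replicate 2 was a nonsense-mediated decay transcript of 2300 bases with 0.42 TPM, and in replicate 1 that transcript had 1.10 TPM beside a processed transcript of 434 bases with 2.68. Atrip rested on retained-intron transcripts for 94.6% of TPM in replicate 1 and 66.7% in replicate 2. Atrip lies on the same strand as Trex1, an exonuclease gene that overlaps its end, and its counts were fractional, 198.24 and 68.15, as were those of Rad54b and, in replicate 2, Pms2. Reads of these 3 genes were shared with others, so their split is uncertain.

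In other members the mix of transcripts differed between the libraries. Rad51c rested on nonsense-mediated decay transcripts for 75.3% of TPM in replicate 1 and 87.1% in replicate 2, through one of 938 bases in replicate 1 and one of 2061 bases in replicate 2. Palb2 had 0.02 TPM on protein-coding transcripts in replicate 1 and 0.85 in replicate 2. Its nonsense-mediated decay share was 89.0% and 18.2%. Fancc had 81.6% of TPM on retained-intron transcripts in replicate 1 and 47.9% in replicate 2. Chek1 led with a 310-base protein-coding transcript at 1.91 TPM in replicate 1, from 30.46 counts. That transcript was absent from the replicate 2 estimate, while the 3397-base transcript had 0.02 TPM in replicate 1 and 0.67 in replicate 2. Exo1 had 0.79 and 0.19 TPM on its 7796-base protein-coding transcript, which held 65.7% and 57.0% of its expected counts. By TPM it was led by protein-coding transcripts of 739 bases in replicate 1 (30.3%) and 738 bases in replicate 2 (48.8%). Of the 24 members with more than 1 annotated transcript 13 had the same leading transcript in both libraries, and in 17 the leading one held under 60% in at least 1 library. The split of reads between transcripts of one gene is an estimate, and 2 libraries do not show how stable it is.

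In Brca1, Fancd2 and Fanci most of the level lay on protein-coding transcripts. Brca1 had 18.4 TPM in replicate 1 and 11.2 in replicate 2 on its 6572-base protein-coding transcript, with 9.54% and 16.1% of TPM on retained-intron transcripts. Fancd2 had 2.56 and 2.28 TPM on its 5512-base protein-coding transcript and 32.6% and 35.9% on retained-intron ones. Fanci kept 77.8% and 69.1% on protein-coding transcripts. Atr had 0.69 and 0.27 TPM on its 8074-base protein-coding transcript, against 0.60 and 0.39 for Atm. On protein-coding transcripts alone 19 of 33 members reached 1 TPM in both libraries, and the 5 highest were Brca1, Blm, Brca2, Fancl and Chek2. Fancl led with a 577-base transcript at 3.32 TPM in replicate 1 and a 1187-base one at 4.63 TPM in replicate 2. Its 2724-base transcript had 2.37 and 1.02 TPM.

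Ratios within pairs of partner genes were followed on 3 scales, since a ratio within a library does not depend on how TPM is scaled. By gene TPM both libraries lay on the same side of 0 in 9 of the 10 pairs, all but Fancd2 to Fanci. The mean was more than 3 SDs from 0 in 5 pairs: Chek1 to Chek2, Wee1 to Cdc25a, Brca1 to Brca2, Bard1 to Brca1, and Msh6 to Pms2. On protein-coding transcripts alone Msh6 stood above Pms2 by a log2 ratio of 0.44 (0.76 without the Gm42421 transcript), and Rad51c below Rad51b by -2.20. Atr and Atm were then at -0.16. Chek1 remained below Chek2 (-1.72) and Bard1 below Brca1 (-1.56), and Brca1 above Brca2 (0.70). For Chek1 to Chek2 the libraries were then further apart, at -1.34 in replicate 1 and -2.09 in replicate 2. By gene TPM they were at -1.21 and -1.42, so the small SD of that pair depends on the scale. Msh6, Chek2, Brca2, Bard1, Wee1 and Cdc25a have 1 listed transcript, a protein-coding one, and Rad51b has only protein-coding ones. Their protein-coding share was fixed by that listing. Only a partner with other transcript types could lose level on that scale, and Wee1 to Cdc25a could not change. With n = 2 no test was made of any pair.

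**Figure D3:**
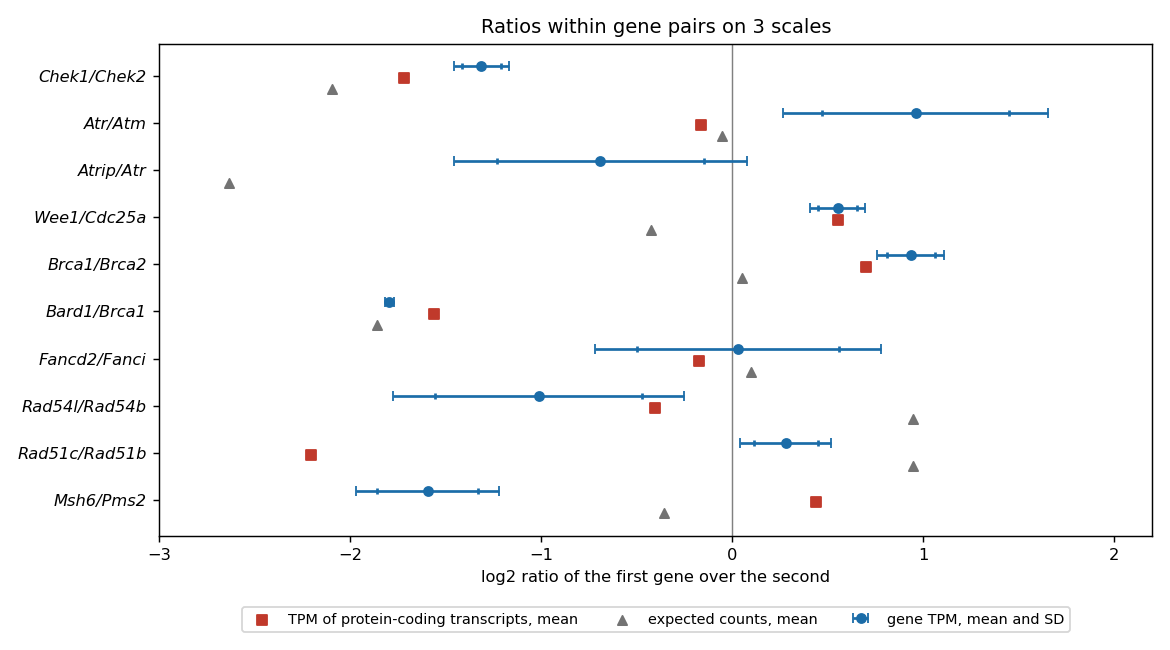
Log2 ratio of the first gene over the second for 10 pairs: mean and SD over the 2 libraries by gene TPM (circles, ticks for each library), mean by TPM of protein-coding transcripts (squares) and mean by expected counts with no length correction (triangles). Bard1 to Brca1 and Chek1 to Chek2 are below 0 on all scales shown, and Brca1 to Brca2 is above 0 on all of them; the mean changes sign between scales for Msh6 to Pms2, Rad51c to Rad51b, Atr to Atm, Wee1 to Cdc25a, Rad54l to Rad54b and Fancd2 to Fanci, and Atrip has no protein-coding value.

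Once scaled, the median difference between the replicates was slightly wider in the members than in other coding genes, and a smaller share was 2-fold apart. Counts were scaled by TMM (a factor that equalises the bulk of genes), and 31 members had a mean count of at least 50. Of these 18 were higher in replicate 1 and 13 in replicate 2, with a median log2 ratio of 0.07, against 0.03 over nuclear protein-coding genes; scaling by TMM itself draws this median to 0. The median size of the difference, whatever its sign, was 0.42 on the log2 scale in members and 0.39 in nuclear protein-coding genes. It was 0.64 in the 13 members with a mean count of 50 to 1000, against 0.59 in nuclear protein-coding genes of that depth. In the 18 members with 1000 or more it was 0.25, against 0.20. These gaps in the median were not tested. A gap of 2-fold or more was found in 3 (9.68%), 2 of them higher in replicate 1 and 1 higher in replicate 2. Over nuclear protein-coding genes with such counts 9.91% were 2-fold higher in replicate 1 and 8.85% in replicate 2, 18.8% in all (21.1% of genes of every type). The share followed depth: 28.4% of coding genes with a mean count of 50 to 1000 and 1.39% of those at 1000 or more were 2-fold apart, against 3 of 13 and 0 of 18 members. With so few members past 2-fold, these shares do not set the members apart from other genes.

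The 3 members past 2-fold were Exo1, Xrcc3 and Chek1. Exo1 had 1201 scaled counts in replicate 1 and 508 in replicate 2, a log2 ratio of 1.24. Xrcc3 had 378 and 174 (1.11). Chek1 had 309 scaled counts in replicate 1 and 801 in replicate 2 (-1.37), although its TPM was higher in replicate 1, where the 310-base transcript led. On rescaled TPM the log2 ratio of Chek1 was -0.20 and that of Exo1 0.86, so neither was 2-fold apart on that scale. Xrcc3 was further apart on it, at 2.44, and Atrip passed 2-fold, at 1.96, against 0.84 on scaled counts. Among members of at least 1000 counts the widest gap was that of Rad54l, with 1602 and 2783 scaled counts (-0.80). Brca1, Blm, Bard1, Brip1 and Msh6 were within 0.1 of 0 on the log2 scale. Fance and Fancf fell under the count minimum; Fance had 8.08 and 112.8 scaled counts.

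**Figure D4:**
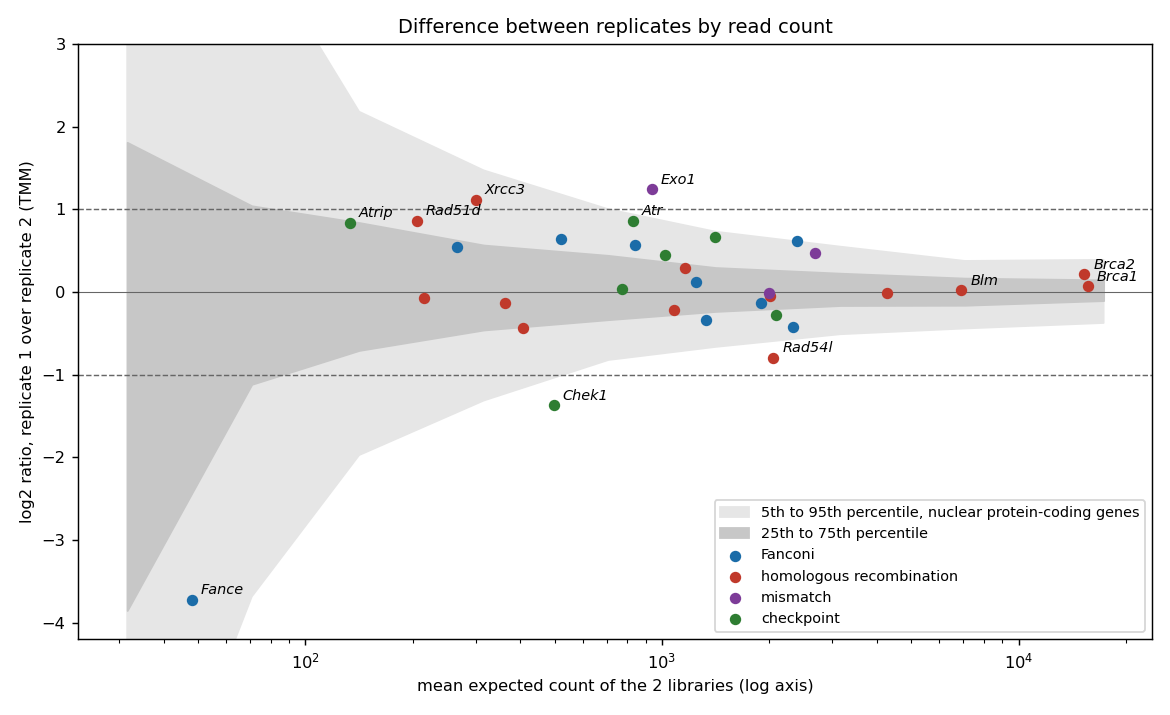
Log2 ratio of TMM-scaled counts, replicate 1 over replicate 2, against the mean expected count of the 2 libraries (log axis) for 32 members (Fancf, at 0 in replicate 1, is not drawn), over the percentile ranges of nuclear protein-coding genes. Dashed lines mark 2-fold; Exo1, Xrcc3, Chek1 and Fance lie past them, and Brca1, Brca2 and Blm lie near 0.

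Other genes of these pathways were set beside the members. Of 12 partners of the Fanconi pathway 7 reached 1 TPM in both libraries. Uhrf1, a chromatin protein that also binds crosslinks, had 23.8 TPM in replicate 1 and 14.1 in replicate 2, and Usp1, which removes ubiquitin from Fancd2, 16.2 and 14.1. Ercc1, a nuclease subunit, was the lowest, at 0.16 and 0.14. Of 20 recombination partners 15 reached 1 TPM in both, with a median of mean TPM of 3.14. Rad51ap1, which stimulates the recombinase, had 31.8 and 18.0 TPM, Fignl1 19.3 and 11.6, and Rmi2, a partner of Blm, 0.27 and 0.25. Of 6 mismatch repair partners 5 reached 1 TPM in both. Pcna, the sliding clamp of replication, had 75.2 and 57.0 TPM, Lig1, the ligase that seals the repaired strand, 17.8 and 12.9, and Mlh3 0.02 and 0.26. Of 14 checkpoint partners 12 passed, with a median of 4.47 TPM. H2afx, the histone marked at breaks, had 227 and 165 TPM, and Cdc25b, a phosphatase related to Cdc25a, 88.4 and 61.4. Hus1, a subunit of the clamp that activates Atr, was the lowest, at 0.87 and 0.67. The 12 genes of end joining, which rejoins breaks without a template, had a lower median, 1.26 TPM, and 6 of them passed 1 TPM in each library. Polq, the polymerase of an alternative end joining route, had 15.4 and 8.51 TPM, Rif1 10.7 and 10.4, and Poll, a gap-filling polymerase, 0 and 0.23. The median of end joining genes lay below those of all 4 member groups, a difference that was not tested.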

How the data were processed

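The authors deposited, for each library, a gene and a transcript table on mm10 with GENCODE M4, per the notes deposited with the samples; the aligner and quantifier are not stated in any source used. Values are the deposited expected counts (estimated counts) and the deposited TPM, per the file headers. Symbols, types and coordinates are GENCODE M21, matched on Ensembl identifiers without version (42462 of 43346 rows; 109 of 110 listed genes). The members, lists, pairs and motifs were chosen with earlier results of these data known, and protein-coding transcript levels after values were seen; genes described by library are the 3 highest and 2 lowest of each group, both genes of a pair, and those under 1 TPM in a library, past 2-fold or with a leading transcript under 60%, and of other lists the 2 highest and the lowest. Expected counts were rounded for scaling. TMM (edgeR 4.0.16, R 4.3.3) gave effective sizes of 61216283 and 37709101, with a prior count of 0.5 and a mean count of at least 50; DESeq2 1.42.0 gave alternative size factors. Tables were handled in Python 3.11.15 with pandas 2.3.3. The 2-fold call was also run on simulated counts for 10403 genes. Their spread was fixed and not fitted to these libraries, so the run does not give an error rate for the calls here. Counts of 0 are limited by 3 counts, which covers counting error only. Whether counting used strand is not stated, so overlapping genes may share reads.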

Additional observations from a re-analysis of the deposited data

How the results depend on the processing

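Against 23 members that reached 1 TPM in each library, 7 reached 5 TPM; the number was 24 to 27 in single libraries. Against 1 member at 10 TPM, 24 reached it on rescaled TPM and 1 to 5 in single libraries. The median of 2.91 TPM became 29.4 on rescaled TPM and 1.64 on protein-coding transcripts, and 2.12 to 3.66 in single libraries; the median rank was 83.1 to 83.9. With mean counts of at least 10, or no filter, 5 members were 2-fold apart in place of 3; on rescaled TPM 2 were, both higher in replicate 1. The median share of the leading transcript was 69.4%, 75.8% by counts, 100% among protein-coding transcripts and 71.8% to 74.5% in single libraries. By expected counts, with no length correction, log2 ratios were -0.053 (Atr to Atm), -0.43 (Wee1 to Cdc25a) and 0.95 (Rad54l to Rad54b), each with the sign turned, and -2.09 (Chek1 to Chek2), -2.63 (Atrip to Atr), 0.052 (Brca1 to Brca2), -1.86 (Bard1 to Brca1), 0.95 (Rad51c to Rad51b) and -0.36 (Msh6 to Pms2). On protein-coding transcripts, an alternative chosen after seeing the data, they turned to -0.16 (Atr to Atm), -2.20 (Rad51c to Rad51b) and 0.44 (Msh6 to Pms2; 0.76 without the Gm42421 transcript), and moved to -1.72 (Chek1 to Chek2), 0.70 (Brca1 to Brca2) and -1.56 (Bard1 to Brca1). A pseudocount of 1 TPM gave -1.05 (Chek1 to Chek2), 0.40 (Wee1 to Cdc25a) and -1.61 (Bard1 to Brca1). Counts lack length correction by construction, and genes with only protein-coding transcripts listed cannot lose level on protein-coding transcripts. Other causes were not tested. No paired analysis was possible because there is 1 group. Leaving out a replicate ends the comparison between replicates.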
